A study of Mus musculus with 6 samples.

Results

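The 9 genes described here encode the proteins that release calcium from the endoplasmic reticulum, pump it back and sense how full the store is: the ryanodine receptors Ryr1, Ryr2 and Ryr3, the inositol trisphosphate (IP3) receptors Itpr1 and Itpr3, the calcium pumps Atp2a2 and Atp2a3 of the SERCA family, and the store sensors Stim1 and Stim2. They were taken by symbol from tables of 24513 genes, and all 9 were among the 15894 genes that passed the filter on low counts. The set was chosen by the fold change of Ryr2 between NS-DADm and wild-type mice, the measured value around which it was built, to ask whether the other genes share that difference. The values of Ryr2 are therefore a description and carry no test. The other 8 genes were listed by family with results of this comparison known, so their p-values describe the fit and are not independent evidence.

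RNA was sequenced from the hypothalamus of 3 NS-DADm mice and 3 wild-type (WT) mice, 1 library per mouse, all of the C57BL/6 strain and aged 3 to 4 months. By background knowledge of the line and not by its labels, NS-DADm animals carry germline mutations in the deacetylase-activating domains of nuclear receptor corepressors, NCOR1 among them, so that these proteins no longer activate the histone deacetylase HDAC3. A germline change is in every cell type, and the whole tissue was measured, so fewer cells of a type and less RNA per cell cannot be told apart in any value below. Libraries held 24173076 to 27532590 reads on genes in NS-DADm mice and 26542194 to 27606309 in WT mice. Levels are in CPM, the usual unit of a gene's reads scaled to a common total of reads on genes. Ncor1 measured 226 ± 3.9 CPM in NS-DADm mice, against 229.7 ± 7.4 CPM in WT mice (mean ± SD, n = 3 each). It did not pass the edgeR quasi-likelihood test after Benjamini-Hochberg (BH) adjustment (adjusted p = 0.91), and its level does not check the genotype, since a change of coding sequence need not alter transcript level. Over all genes, 13 were called higher and 91 lower at a BH adjusted p under 0.05.

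Calcium held in the endoplasmic reticulum is released into the cytosol through 2 families of very large tetrameric channels. Ryanodine receptors open when cytosolic calcium or a coupled voltage sensor triggers them, and IP3 receptors open when phospholipase C makes IP3 downstream of an activated receptor. SERCA pumps use ATP to refill the store, and STIM proteins sense its loss and open ORAI channels in the plasma membrane. In neurons these proteins amplify calcium signals in soma, dendrites and terminals, and in the hypothalamus they shape firing and peptide release.

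The members were few in number but large in gene size. In the mm10 genome build (GENCODE), Ryr2 spans chr13:11553102-12106945 on the minus strand (554 kb, 107 merged exons), Ryr3 chr2:112631355-113217096 on the minus strand (586 kb) and Ryr1 chr7:29003344-29125179 on the minus strand (122 kb). Itpr1 lies at chr6:108213096-108551109 and Itpr3 at chr17:27057304-27122223, both on the plus strand. Atp2a2 lies at chr5:122453513-122502225 on the minus strand and Atp2a3 at chr11:72961169-72993044 on the plus strand. Stim1 at chr7:102267806-102437319 and Stim2 at chr5:53998499-54121057 are both on the plus strand. Counting was not stated to use strand, so reads in exons shared with a gene on the other strand cannot be told apart. Such overlap covered 4.83% of the exon bases of Ryr3 (with Aven), 3.96% of those of Ryr1 (with Gm26604) and 2.58% of those of Itpr3 (with Itpr3os), and none of those of Ryr2, Stim1, Stim2 or Atp2a3.

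Many, though not all, of the nuclear receptors to which these corepressors bind recognise the half-site AGGTCA in DNA. The promoter of the gene that was higher is shown beside that of its family member Ryr1. Both are from RefSeq (GRCm38.p6), each from 250 bases before to 50 bases after the gene's start. Ryr2 is taken from chr13:12106896-12107195 and Ryr1 from chr7:29125102-29125401, both minus strand, and capitals mark AGGTCA or its reverse complement TGACCT.
Ryr2: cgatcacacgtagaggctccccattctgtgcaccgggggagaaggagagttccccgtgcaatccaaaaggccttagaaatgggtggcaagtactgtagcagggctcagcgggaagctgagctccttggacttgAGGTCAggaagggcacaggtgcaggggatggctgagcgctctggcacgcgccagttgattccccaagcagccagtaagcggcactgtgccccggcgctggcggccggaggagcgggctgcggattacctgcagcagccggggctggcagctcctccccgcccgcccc
Ryr1: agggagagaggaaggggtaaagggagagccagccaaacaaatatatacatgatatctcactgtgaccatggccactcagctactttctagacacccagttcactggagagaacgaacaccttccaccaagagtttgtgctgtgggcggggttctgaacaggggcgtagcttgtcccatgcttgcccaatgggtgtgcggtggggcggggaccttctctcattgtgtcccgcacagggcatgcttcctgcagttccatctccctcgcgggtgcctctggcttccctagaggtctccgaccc
The Ryr2 window held 1 half-site, which began 117 bases before the start, and the Ryr1 window held 0. Promoters were matched for 6 of the 9 genes (Ryr1, Ryr2, Itpr3, Atp2a3, Stim1 and Stim2). AGGTCA was present on either strand in 1 of the 6 (Ryr2), which is close to the 16.3% of 32851 promoter windows of the same length. The motif GGGCGG, read by SP1-type factors, was present on either strand in 6 of 6, against 35.7% of all windows, and TGACGTCA, the cyclic AMP response element, in 0 of 6, against 1.79%. These matches describe letters in a window and not bound sites.

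Levels differed far more between genes than between groups. Per kilobase of merged exons, Atp2a2, the housekeeping SERCA pump, stood at 136 ± 2.0 CPM per kb in NS-DADm mice, against 159 ± 14 CPM per kb in WT mice (mean ± SD, n = 3 each, here and in the next sentences). Itpr1 followed with 11.8 ± 1.1 CPM per kb in NS-DADm and 13.4 ± 1.5 in WT mice, and Stim1 with 12.3 ± 0.21 in NS-DADm and 11.9 ± 0.66 in WT mice. Stim2 stood at 9.09 ± 0.47 CPM per kb in NS-DADm and 9.38 ± 0.77 in WT mice. Next came the pair of ryanodine receptors best known from brain. Ryr2, the receptor also known from heart, stood at 7.54 ± 0.26 CPM per kb in NS-DADm and 6.04 ± 0.40 in WT mice, and Ryr3 at 6.10 ± 0.42 in NS-DADm and 5.74 ± 0.48 in WT mice. The lowest were Atp2a3, a SERCA pump best known from blood and epithelial cells, at 1.502 ± 0.041 CPM per kb in NS-DADm and 1.63 ± 0.34 in WT mice, and Itpr3, at 0.68 ± 0.037 in NS-DADm and 0.71 ± 0.10 in WT mice. Ryr1, the receptor of skeletal muscle, was lowest of all, at 0.62 ± 0.11 CPM per kb in NS-DADm and 0.63 ± 0.050 in WT mice. Over the 6 libraries the ranges of neighbours in this order overlapped for Itpr1 and Stim1, for Ryr2 and Ryr3, and for Itpr3 and Ryr1, and not for the other neighbours. The order of close neighbours depends on the gene model, because with the longest transcript as length Stim1 (28.7 CPM per kb) came before Itpr1 (23.3), Ryr2 (11.6) before Stim2 (9.60), and Ryr1 (0.89) before Itpr3 (0.70).

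**Figure D1:**
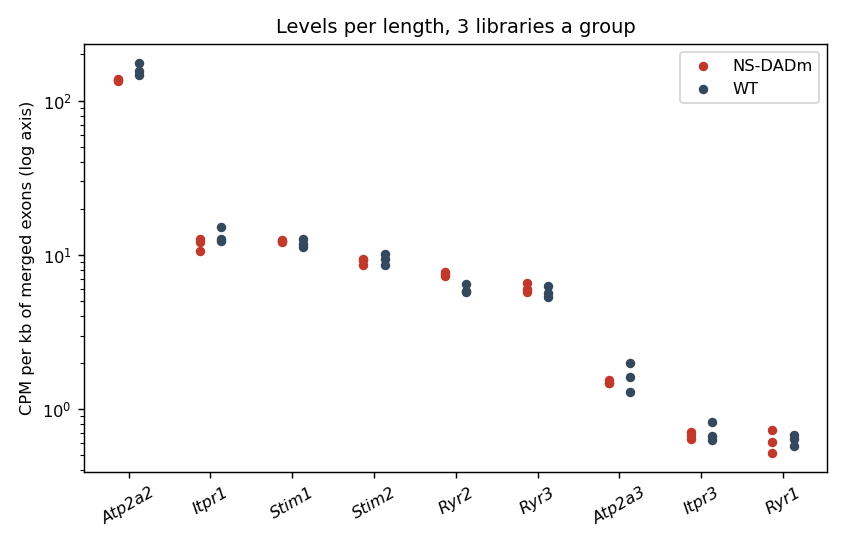
CPM per kilobase of merged exons on a log axis for the 9 genes in order of their mean, with 1 point per library (3 NS-DADm in red, 3 WT in dark blue). Atp2a2 lies between 135 and 175, far above every other gene, and Ryr1 and Itpr3 lie below 0.83.

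Among ryanodine receptors, Ryr2 was the gene whose groups did not overlap. Ryr2 measured 218, 209 and 224 CPM in NS-DADm 1, 2 and 3, against 167, 187 and 168 CPM in WT 1, 2 and 3. The lowest NS-DADm library lay above the highest WT library, which was WT 2. The fitted log2 fold change was 0.32 ± 0.055 SE (1.25-fold), a value that chose the set and is given without a test. It ran from 0.29 to 0.38 with each library left out in turn. These levels rested on 4428 to 5895 reads per library.

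Ryr3 measured 124, 109 and 114 CPM in NS-DADm 1, 2 and 3, against 119, 101 and 108 CPM in WT 1, 2 and 3. The groups overlapped, and its log2 fold change was 0.09 ± 0.068 SE (edgeR, BH adjusted p = 0.72). Ryr1 measured 16.0, 11.4 and 13.3 CPM in NS-DADm mice and 14.8, 13.99 and 12.6 CPM in WT mice, so the NS-DADm libraries held both the highest and the lowest value. Its log2 fold change was -0.03 ± 0.12 SE (edgeR, BH adjusted p = 0.96), and its sign changed when WT 1 (0.02) or NS-DADm 2 (0.08) was left out. Of the reads per kilobase on the 3 receptors, Ryr2 took 50.9, 53.8 and 54.0% in NS-DADm 1, 2 and 3, against 45.5, 52.3 and 48.2% in WT 1, 2 and 3. These shares overlapped between the groups, with WT 2 above NS-DADm 1. Ryr3 took 42.8 ± 1.2% in NS-DADm and 46.2 ± 3.3% in WT mice, and Ryr1 took 4.34 ± 0.54% in NS-DADm and 5.09 ± 0.27% in WT mice. The size of these shares depends on the gene model. Over the 6 libraries Ryr2 and Ryr3 averaged 6.79 and 5.92 CPM per kb of merged exons, but 11.6 and 7.26 with the longest transcript as length. No test was run of the difference between Ryr2 and the other receptors, because Ryr2 was picked for its size.

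Neither listed IP3 receptor passed the threshold, and both had fitted values below 0. Itpr1, the main IP3 receptor of neurons, measured 233, 193 and 222 CPM in NS-DADm 1, 2 and 3, against 277, 231 and 226 CPM in WT 1, 2 and 3. WT 1 was the highest and NS-DADm 2 the lowest library, and the groups overlapped, since NS-DADm 1 lay above WT 2 and WT 3. Its log2 fold change was -0.18 ± 0.091 SE (edgeR, BH adjusted p = 0.53), and it was -0.08 without WT 1 and -0.11 without NS-DADm 2. Itpr3, a receptor richer in epithelia than in neurons, measured 5.77, 6.15 and 6.43 CPM in NS-DADm mice and 7.46, 6.06 and 5.68 CPM in WT mice, with a log2 fold change of -0.07 ± 0.12 SE (edgeR, BH adjusted p = 0.91). Without WT 1, its highest library, that value was 0.06. Of the reads per kilobase on the pair, Itpr1 took 94.5 ± 0.65% in NS-DADm and 94.97 ± 0.16% in WT mice (n = 3 each; exact two-sided permutation test, p = 0.40). The smallest p this test allows with 3 against 3 is 0.10. The remaining family member Itpr2, which was not in the set, measured 39.6 ± 2.6 CPM in NS-DADm mice, against 37.9 ± 2.1 CPM in WT mice (edgeR, BH adjusted p = 0.80).

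The main SERCA pump stood on the opposite side from Ryr2. Atp2a2 measured 819, 827 and 842 CPM in NS-DADm 1, 2 and 3, against 1064, 899 and 946 CPM in WT 1, 2 and 3. All NS-DADm libraries lay below all WT libraries, and they lay within a narrow band, whereas WT 1 stood above its own group. The means were 829 ± 12 CPM in NS-DADm mice, against 969.7 ± 85 CPM in WT mice. The log2 fold change was -0.23 ± 0.058 SE and did not pass the threshold (edgeR, unadjusted 0.0018 and BH adjusted p = 0.12 over all tested genes). Over the alternatives without pairing its BH adjusted p ran from 0.0196 (DESeq2) to 0.91 (edgeR with the covariate described below). It was past the threshold with the DESeq2 Wald test (log2 -0.23) and, in edgeR, without WT 2 (-0.28, BH adjusted p = 0.032), and among the fits that leave out 1 library its smallest size was -0.15, without WT 1. Atp2a3 measured 8.18, 7.78 and 7.83 CPM in NS-DADm mice and 10.5, 8.58 and 6.82 CPM in WT mice. The WT libraries spanned the NS-DADm range, with a log2 fold change of -0.12 ± 0.14 SE (edgeR, BH adjusted p = 0.83), which was 0.04 without WT 1. Atp2a2 made up 98.9 ± 0.042% of the reads per kilobase of the 2 pumps in NS-DADm and 98.99 ± 0.16% in WT mice (n = 3 each; exact two-sided permutation test, p = 0.70).

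Neither store sensor passed the threshold. Stim1, which opens ORAI channels when the store empties, measured 125, 128 and 129 CPM in NS-DADm 1, 2 and 3, against 117, 131 and 122 CPM in WT 1, 2 and 3. The WT libraries lay on both sides of all NS-DADm libraries (log2 fold change 0.05 ± 0.051 SE, not past the threshold in edgeR, BH adjusted p = 0.82). Stim2, which responds to smaller losses of store calcium, measured 43.9, 47.5 and 48.5 CPM in NS-DADm mice and 44.0, 51.9 and 48.5 CPM in WT mice. Its groups overlapped (log2 fold change -0.05 ± 0.069 SE, not past the threshold in edgeR, BH adjusted p = 0.89), and the value was 0.01 without WT 2. Of the reads per kilobase on both sensors, Stim1 took 58.5, 57.1 and 56.9% in NS-DADm 1, 2 and 3, against 56.9, 55.5 and 55.4% in WT 1, 2 and 3, and WT 1 lay just above NS-DADm 3 (exact two-sided permutation test, p = 0.20). Here too the size of the share depends on the gene model. Stim1 and Stim2 averaged 12.1 and 9.23 CPM per kb of merged exons, but 28.7 and 9.60 with the longest transcript as length.

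**Figure D2:**
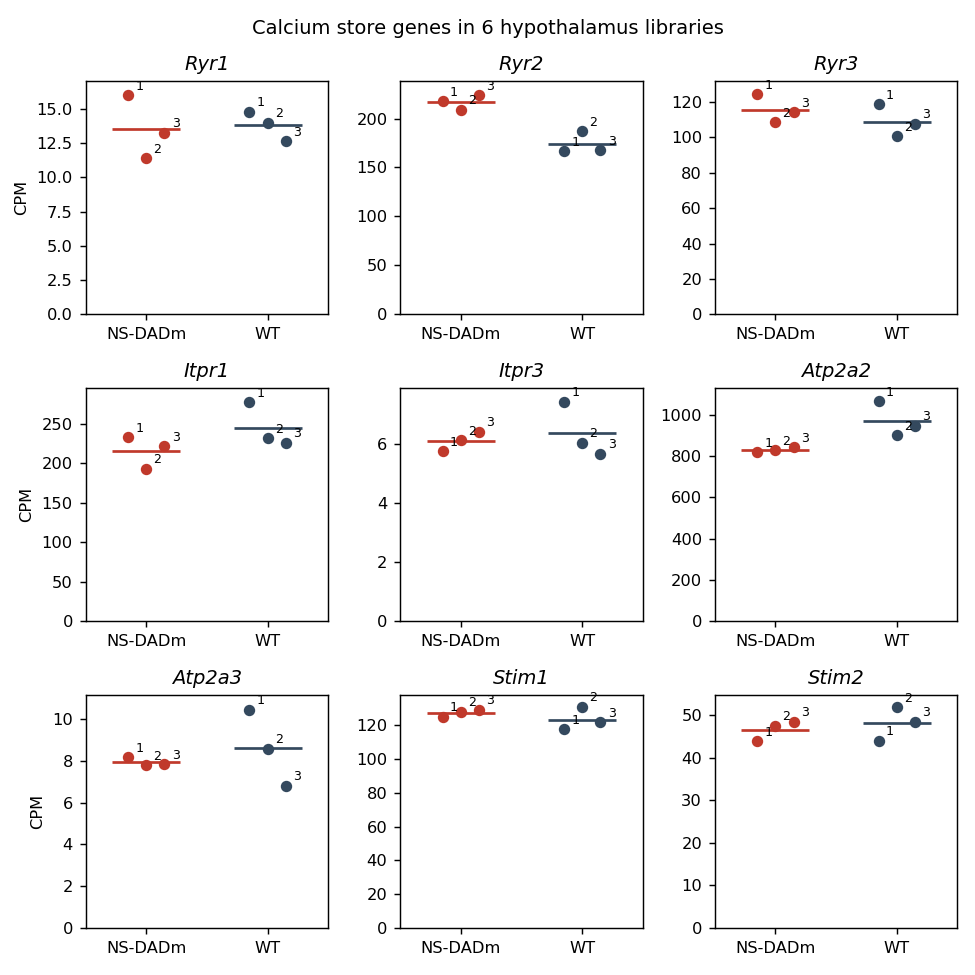
CPM of each of the 9 genes, with 1 point per library numbered by replicate, NS-DADm in red on the left, WT in dark blue on the right, and a line at each group's mean; every axis starts at 0. Ryr2 (209 to 224 against 167 to 187) and Atp2a2 (819 to 842 against 899 to 1064) are the genes whose groups do not overlap.

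Counted over the set, 1 of 9 genes was called at a BH adjusted p under 0.05 in edgeR, namely Ryr2, for which the set was built, against 0.654% of all tested genes, and nothing is read from that count. Of the other 8 genes, 0 were called by edgeR, 0 by limma voom and 1 by DESeq2 (Atp2a2), which called 282 genes in all. An unadjusted edgeR p under 0.05 was found for 1 of the 8 (Atp2a2), and for 1726 of all 15894 tested genes. Nothing is read from these counts. The groups did not overlap for 2 of 9 genes, against 16.8% of all tested genes: Ryr2 was higher, as were 7.86% of all genes, and Atp2a2 was lower, as were 8.93%. Fitted values were above 0 for 3 genes and below 0 for 6. Their median log2 fold change was -0.05, and it was -0.06 over the 8 genes other than Ryr2, against 0.004 over all tested genes. Ryr2 lay above 96.3% of all tested genes in its log2 fold change, Ryr3 above 77.6%, Itpr1 above 10.0% and Atp2a2 above 7.78%.

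Over the 6 libraries, levels of several of these genes moved with markers of thalamus, the brain region next to hypothalamus. All 15 thalamus markers listed had log2 fold changes below 0, with a median of -0.91 and 0 markers without reads. Of the 15, 6 were past the threshold, against 0.573% of all tested genes called lower. The markers were listed with earlier results of these data known, so their direction and the gap between the groups are a description only. Their summed level was 735 to 837 CPM in NS-DADm and 1081 to 1626 CPM in WT mice. Averaged over the 15 markers, log2 CPM was 4.89, 4.58 and 4.84 in NS-DADm 1, 2 and 3, against 6.14, 5.40 and 5.83 in WT 1, 2 and 3. Across the 6 libraries this mean had a Pearson r of -0.94 with Ryr2, 0.96 with Atp2a2 and 0.80 with Itpr1 in log2 CPM, as a description of 2 groups of 3 libraries. It had -0.06 with Ryr3 and -0.11 with Stim2. Within WT mice, WT 2 had the lowest marker mean, the highest Ryr2 and the lowest Atp2a2, and WT 1 had the highest marker mean, the lowest Ryr2 and the highest Atp2a2. Within NS-DADm mice this order was not found. NS-DADm 2 had the lowest marker mean and also the lowest Ryr2 (209 CPM). NS-DADm 1 had the highest marker mean and the lowest Atp2a2 (819 CPM).

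With the marker mean as a covariate, 13 of all 15894 tested genes were called. Of the 8 genes other than Ryr2, 0 were called, and nothing is read from that count. The log2 fold change of Ryr2 was then 0.16 ± 0.12 SE, against 0.32 without it, and that of Atp2a2 was 0.05 ± 0.11 SE (edgeR, BH adjusted p = 0.91). Ryr3 had 0.45 ± 0.12 SE (edgeR, BH adjusted p = 0.22), Itpr1 0.24 ± 0.13 SE and Stim2 -0.35 ± 0.14 SE (edgeR, BH adjusted p = 0.59 and 0.43). Because the marker mean did not overlap between the groups, the parts of genotype and of marker level in these values cannot be told apart in 6 libraries.

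**Figure D3:**
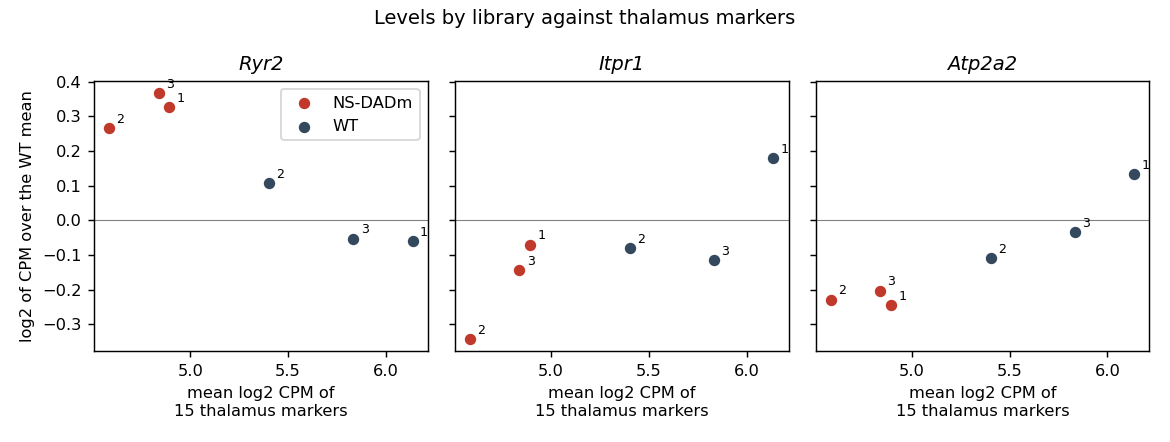
Log2 of each library's CPM over the WT mean (vertical) for Ryr2, Itpr1 and Atp2a2 against the mean log2 CPM of 15 thalamus markers (horizontal), with libraries numbered by replicate, NS-DADm in red and WT in dark blue. Marker means lie between 4.58 and 4.89 in NS-DADm and between 5.40 and 6.14 in WT libraries. Over all libraries Ryr2 runs down and Atp2a2 up along them, but not among the NS-DADm libraries alone.

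**Figure D4:**
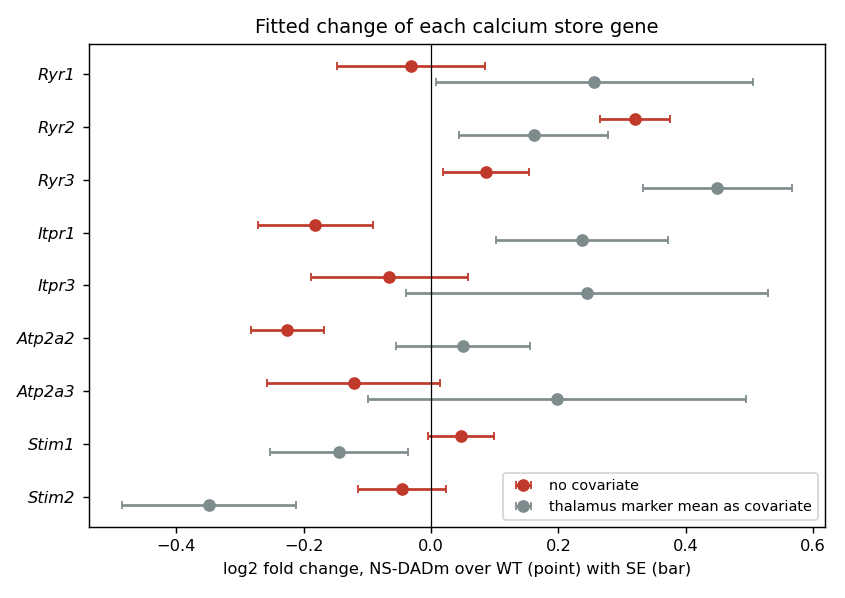
Fitted log2 fold changes, NS-DADm over WT, with SE bars for the 9 genes without a covariate (red) and with the thalamus marker mean as a covariate (grey). Ryr2 moves to 0.16 with the covariate and Atp2a2 to 0.05, while Ryr3 moves to 0.45; the bars are wider with it.

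Markers of other tissue and cell types, given as summed CPM, also differed in part. Anterior pituitary markers summed to between 244 and 2078 CPM in NS-DADm mice, with the highest value in NS-DADm 2, and to between 82.6 and 156 CPM in WT mice. In NS-DADm mice most of the sum was 1 gene, Gh, at 167, 1809 and 172 CPM in NS-DADm 1, 2 and 3. In WT mice Gh measured 30.5 to 96.0 CPM. Of the 8 pituitary markers tested, 0 were called. Sums that did not overlap were also found for cortical and hippocampal excitatory neurons (129.7 to 144 CPM in NS-DADm, 154 to 202 in WT mice), for neurons in general (4453 to 4506 in NS-DADm, 4713 to 4878 in WT mice) and for microglia (232 to 245 in NS-DADm, 256 to 268 in WT mice). All 15 hypothalamus markers were tested, and 13 had log2 fold changes above 0 (median 0.19). Of the 15, 1 was called higher, against 0.0818% of all tested genes. Hypothalamus markers summed to between 832 and 1004 CPM in NS-DADm and between 805 and 886 in WT mice. Of the 9 oligodendrocyte markers, 8 had log2 fold changes below 0, and 1 was called lower, against 0.573% of all tested genes. Without overlap of the groups, 4 of the 9 were lower and 1 higher, against 8.93% and 7.86% of all genes. Of the 7 blood markers, 4 had 0 reads in every library, so their sum is no measure of blood content. Sums of astrocyte, oligodendrocyte, striatal, smooth muscle and blood markers overlapped. So did those of skeletal muscle, which uses Ryr1 and Atp2a1 (8.06 to 9.63 CPM in NS-DADm, 7.16 to 8.84 in WT mice). The sums listed for Purkinje cells, known for high Itpr1, overlapped too (281 to 304 CPM in NS-DADm, 299.5 to 321 in WT mice). Most of that sum was Calb1 (202 to 224 CPM in NS-DADm, 225 to 241 in WT mice), and Pcp2 had 4 to 8 reads per library. The sum is therefore not a measure of Purkinje cells alone. The part of these markers in the results was not tested.

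Related calcium genes were taken as 11 lists by role, with 148 genes tested in all, each counted once. None was called higher and 1 was called lower (Plcb4), against 0.0818% and 0.573% of all tested genes. An unadjusted edgeR p under 0.05 was found for 30 of the 148, and for 1726 of all 15894 tested genes. The groups did not overlap for 37 of them, which is 25.0% against 16.8% of all tested genes. Of the 148, 11 were higher and 26 lower in NS-DADm mice, against 7.86% higher and 8.93% lower of all tested genes. The median log2 fold change was -0.02, against 0.004 over all tested genes. Settings named below in which single genes passed the threshold also called more of all genes than the reported 104. Totals were 313 leaving out WT 1, 262 leaving out WT 2 and 106 leaving out NS-DADm 1. DESeq2 called 282, and no count filter gave 203. Fits that dropped WT 3, NS-DADm 2 or NS-DADm 3 called 10, 5 and 8. Mrvi1, Bok, Ahnak, Plce1, Atp2a1, Atp2b1, Slc24a3 and Nfatc2 did not pass in those fits. No added evidence is read from such passes.

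Partners of ryanodine receptors held 20 tested genes, 0 called, with a median log2 fold change of -0.08. Ahnak, a very large scaffold protein that binds calcium channel subunits, was kept as listed, with no claim that it binds ryanodine receptors. It measured 46.9 ± 1.1 CPM in NS-DADm mice, against 39.4 ± 1.3 CPM in WT mice (edgeR, BH adjusted p = 0.066). Its groups did not overlap, and it was past the threshold without WT 1 (log2 0.28; edgeR, BH adjusted p = 0.013) and with DESeq2 (0.25; 0.039).

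Partners of IP3 receptors held 16 tested genes, 0 called, with a median log2 fold change of 0.06. Mrvi1, an IP3 receptor partner that links the channel to cyclic GMP signalling, measured 4.74, 3.00 and 3.76 CPM in NS-DADm 1, 2 and 3, against 13.01, 6.54 and 9.54 CPM in WT 1, 2 and 3 (log2 -1.34 ± 0.28 SE; edgeR, BH adjusted p = 0.12). Bok, a BCL2 family protein bound to IP3 receptors, measured 17.5, 15.3 and 15.4 CPM in NS-DADm mice and 32.5, 21.4 and 27.4 CPM in WT mice (log2 -0.76 ± 0.14 SE; edgeR, BH adjusted p = 0.054). In both genes WT 1 was highest and WT 2 lowest among WT libraries, the order of the thalamus markers. With those markers as covariate Mrvi1 had 0.14 and Bok 0.04. Both were past the threshold without WT 1 (log2 -1.07 and -0.60; edgeR, BH adjusted p = 0.035 and 0.010), without WT 2 (-1.56 and -0.90; 0.0011 and 0.00027), and with DESeq2 (BH adjusted p = 6.57e-07 and 1.93e-06). With the covariate the edgeR BH adjusted p was 0.90 and 0.96, and with WT 3 left out it was 0.43 and 0.30.

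Of 14 phospholipase C genes, which make IP3, 1 was called (median log2 fold change 0.005, against 0.654% of all tested genes called). Plcb4, an isoform coupled to Gq receptors, fell to 117, 121 and 121 CPM in NS-DADm 1, 2 and 3, against 146, 137 and 145 CPM in WT 1, 2 and 3 (log2 -0.25 ± 0.048 SE; edgeR, BH adjusted p = 0.034). Plcb4 is also 1 of the 15 thalamus markers averaged into the covariate, so no value with that covariate is given for it. It was not past the threshold without WT 3 (log2 -0.24; edgeR, BH adjusted p = 0.16), NS-DADm 1 (-0.24; 0.10), NS-DADm 2 (-0.26; 0.18) or NS-DADm 3 (-0.26; 0.198), or with no scaling factors (-0.24; 0.051). Plce1, an isoform driven by small GTPases, measured 51.3, 57.5 and 62.7 CPM in NS-DADm mice and 42.0, 45.5 and 48.3 CPM in WT mice (log2 0.34 ± 0.077 SE; edgeR, BH adjusted p = 0.074). It was past the threshold without NS-DADm 1 (0.41; edgeR, BH adjusted p = 0.030), with no count filter (0.33; 0.029) and with DESeq2 (0.34; 0.0071), and had 0.19 with the covariate (0.76).

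The other pumps and channels of these families held 4 tested genes, 0 called. Atp2a1, the SERCA pump of fast skeletal muscle, had 19, 9 and 10 reads in NS-DADm 1, 2 and 3, against 75, 32 and 51 reads in WT 1, 2 and 3. The groups did not overlap, and the log2 fold change was -1.99 ± 0.39 SE (0.49 ± 0.25 CPM in NS-DADm mice, against 1.95 ± 0.79 CPM in WT mice; edgeR, BH adjusted p = 0.0502). It was past the threshold without WT 1 (-1.66; edgeR, BH adjusted p = 0.021), WT 2 (-2.26; 0.0023) or NS-DADm 1 (-2.45; 0.034), with no count filter (-2.00; 0.0299) and with DESeq2 (-1.99; 0.00068), and had -0.10 with the thalamus covariate (0.97). Atp2c1, the calcium and manganese pump of the Golgi, measured 169.7 ± 4.4 CPM in NS-DADm mice, against 181 ± 2.4 CPM in WT mice (edgeR, BH adjusted p = 0.49).

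SERCA regulators held 9 tested genes, 0 called, with a median log2 fold change of -0.03. For 3 of the 9 (Ap2a2, Clcc1 and Kcnk3) no role at the pump is established, so the count and median are not those of regulators alone. Phospholamban (Pln), the best known inhibitor of Atp2a2, had 13 to 23 reads in NS-DADm and 14 to 26 reads in WT libraries, and sarcolipin (Sln) had at most 5 reads in any library and was not tested. Both are named outside the rule for named genes, with their values known. The smallest p-values belonged to Ap2a2, a clathrin adaptor subunit, at -0.18 ± 0.047 SE, and Vmp1, an endoplasmic reticulum protein that modulates the pump, at -0.12 ± 0.052 SE (log2; edgeR, BH adjusted p = 0.13 and 0.396).

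Store-operated entry held 17 tested genes, 0 called, with a median log2 fold change of 0.002. The pore genes Orai1, Orai2 and Orai3 measured 6.82 ± 1.1, 63.5 ± 2.3 and 13.93 ± 2.4 CPM in NS-DADm mice, against 6.91 ± 0.32, 63.4 ± 0.97 and 15.9 ± 0.87 CPM in WT mice, and are named with their values known. Esyt1, a tether between endoplasmic reticulum and plasma membrane, had a log2 fold change of 0.21 ± 0.083 SE (edgeR, BH adjusted p = 0.37).

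Calcium buffers and leak genes held 21 tested genes, 0 called, with a median log2 fold change of -0.01. Calb2 and Calb1, cytosolic buffers of neurons, had -0.21 ± 0.060 SE and -0.14 ± 0.053 SE (edgeR, BH adjusted p = 0.18 and 0.35), and with the covariate Calb2 had 0.05 and Calb1 -0.26. Among 11 genes for export across the plasma membrane, 0 were called (median -0.01). Atp2b1, the widely expressed export pump, measured 289, 260.3 and 273 CPM in NS-DADm 1, 2 and 3, against 346, 308 and 330.3 CPM in WT 1, 2 and 3 (log2 -0.26 ± 0.056 SE; edgeR, BH adjusted p = 0.057). It was past the threshold without WT 1 (-0.22; edgeR, BH adjusted p = 0.033) or WT 2 (-0.30; 0.022), with no count filter (-0.27; 0.014) and with DESeq2 (-0.26; 0.0029), and had 0.0077 with the covariate. Slc24a3, a potassium-dependent sodium-calcium exchanger, measured 208 ± 3.3 CPM in NS-DADm mice, against 235 ± 0.67 CPM in WT mice (edgeR, BH adjusted p = 0.0998), and was past the threshold without WT 1 (-0.17; edgeR, BH adjusted p = 0.047) and with DESeq2 (-0.18; 0.027).

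Mitochondrial calcium uptake held 14 tested genes, 0 called, with a median log2 fold change of -0.05. Vdac1, the outer membrane channel, had -0.15 ± 0.045 SE, and Ccdc109b (also called Mcub), the inhibitory subunit of the uniporter, -0.45 ± 0.18 SE (edgeR, BH adjusted p = 0.19 and 0.37). Endolysosomal channels held 6 tested genes, 0 called (median -0.03), and the 2-pore channel genes Tpcn1 and Tpcn2 had 0.14 ± 0.058 SE and 0.19 ± 0.15 SE (edgeR, BH adjusted p = 0.38 and 0.71). Calcium-dependent kinases and phosphatases held 17 tested genes, 0 called (median -0.05). The transcription factor gene Nfatc2, which calcineurin activates, had 0.20 ± 0.075 SE and the kinase gene Camk1g 0.16 ± 0.062 SE (edgeR, BH adjusted p = 0.33 and 0.35). Nfatc2 was past the threshold without WT 1 (0.27; edgeR, BH adjusted p = 0.047).

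**Figure D5:**
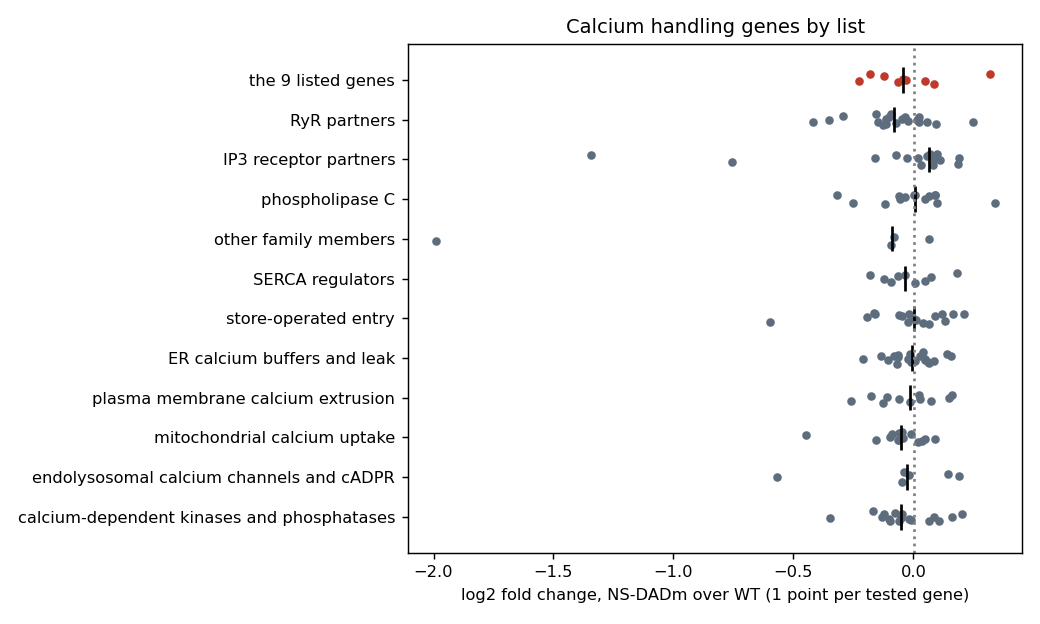
Log2 fold changes, NS-DADm over WT, for the 9 genes (red) and for the tested genes of 11 related lists (grey), with 1 point per gene, a black bar at each list's median and a dotted line at the median of all tested genes (0.004). List medians lie between -0.09 and 0.06, and Atp2a1 (-1.99), Mrvi1 (-1.34) and Bok (-0.76) lie farthest below 0.

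The 4 genes whose levels were most like those of Ryr2 lay outside the calcium lists. Those lists hold only 148 of the 15894 tested genes, so nothing is read from that. Among 14524 other genes averaging 1 CPM or more, the highest Pearson r with Ryr2 in log2 CPM over the 6 libraries belonged to Ksr2, a scaffold of the RAS-MAPK cascade (0.999), Mamdc4 (0.994), the cilium gene Cfap44 (0.992) and Rgl1, a RAL guanine nucleotide exchange factor (0.991). With 2 groups of 3 libraries and this many genes, such values only describe the pattern. Ksr2 measured 38.4, 37.5 and 38.8 CPM in NS-DADm 1, 2 and 3, against 33.8, 35.6 and 33.6 CPM in WT 1, 2 and 3. Ksr2 was picked for this likeness, and like Ryr2 it was highest in NS-DADm 3 and, among WT libraries, in WT 2. None of the 4 passed the threshold, with log2 fold changes of 0.15 (Ksr2), 0.34 (Mamdc4), 0.16 (Cfap44) and 0.10 (Rgl1). Within the set, the r with Ryr2 was 0.69 for Stim1, 0.27 for Ryr3, -0.56 for Itpr1 and -0.90 for Atp2a2.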

How the data were processed

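RNA was measured in hypothalamus of 3 NS-DADm and 3 WT mice. The authors deposited raw read counts per gene symbol, 1 table per mouse. TopHat2 2.0.9, HTSeq and the mm10 build are named in the submitters' processing notes. Which annotation and strand setting were used is not given in the sources used here. Rows of unassigned reads were left out of library sizes: reads outside genes were 13.3 to 14.8% of entries, ambiguous reads 1.00 to 1.06%, and reads without a unique alignment 14.3 to 16.5%, so genes with near-identical copies may be undercounted.

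In edgeR 4.0.16 (R 4.3.3), genes passing filterByExpr were scaled by TMM and given a quasi-likelihood test without covariates, with BH adjustment over 15894 genes. The SE is the log2 fold change over the root of F, and CPM came from TMM-scaled library sizes. CPM was divided by the length of merged GENCODE exons for levels. The fit was tested on simulated data. Replicate libraries differed by 3.41 to 10.4 times counting noise (chi-square per degree of freedom). Alternatives were other scalings and filters, DESeq2 1.42.0, limma 3.58.1, a replicate block, a thalamus marker covariate and leaving out each library.

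The members and gene lists were chosen with earlier results of these data known. Genes named are the members, from each related list those called or up to 2 with the smallest p, and the 4 genes most like Ryr2. Some genes under this rule are not reported here. Figures were drawn with matplotlib 3.10.9.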

Additional observations from a re-analysis of the deposited data

How the results depend on the processing

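Over all genes, 104 calls (13 higher, 91 lower in NS-DADm) became 203 (31, 172) with no count filter, 282 (49, 233) with DESeq2 and 13 (8, 5) with the thalamus covariate. Lower calls numbered 60 with no scaling factors. With each library left out in turn, calls ran from 5 (NS-DADm 2) to 313 (WT 1), with 262 without WT 2, 10 without WT 3 and 8 without NS-DADm 3, higher calls from 1 to 102 and lower calls from 4 to 243. Members called were 1 as reported, 2 with DESeq2, 0 with the covariate and 0 to 2 with libraries left out; without Ryr2 they were 0, 1 with DESeq2, and 0 to 1 with libraries left out. Members called were 0 without WT 3, NS-DADm 2 or NS-DADm 3.

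Replicate numbers are shared by the groups, but the labels do not say that they pair mice. Deviations of same-numbered libraries correlated at 0.13, 0.09 and -0.03, and NS-DADm 3 correlated best with WT 2. With a replicate block, 409 genes were called (77 higher, 332 lower), with 2 members, 1 without Ryr2 (Atp2a2, log2 -0.22, edgeR BH adjusted p = 0.023). The block also put past the threshold, by edgeR BH adjusted p, Mrvi1 (1.53e-05), Bok (0.00015), Atp2a1 (0.00043), Atp2b1 (0.0024), Plce1 (0.0025), Ahnak (0.0226) and Slc24a3 (0.031).

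Values that changed sign with the covariate were those of Ryr1 (0.26), Itpr1 (0.24), Itpr3 (0.24), Atp2a2 (0.051), Atp2a3 (0.20), Stim1 (-0.14), Bok (0.043), Mrvi1 (0.14), Calb2 (0.052), Atp2b1 (0.0077), Ccdc109b (0.21) and Camk1g (-0.11), all as log2 fold changes. With libraries left out, log2 fold changes ran from -0.16 to 0.081 for Ryr1, -0.14 to 0.063 for Itpr3, -0.26 to 0.044 for Atp2a3 and -0.10 to 0.012 for Stim2. The difference in the Atp2a2 share ran from -0.13 to 0.014 percentage points. The causes were not tested. Other scalings and a minimum of 1 CPM kept the direction of every gene refitted, as did DESeq2, limma voom and the block. The order of levels with the longest transcript as gene length was added after the data had been seen. Among genes named in the text, reads were fewest for Sln (0 to 5 reads per library), Pln (13 to 26) and Atp2a1 (9 to 75).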
